A study of Rattus norvegicus with 3 samples.

Results

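The genes described here encode neurofilaments and other intermediate filaments. They were the 10 genes NEFL, NEFM, NEFH, INA, PRPH, VIM, NES, SYNM, LMNA and LMNB2, found by their symbol in a table of 12758 genes. Of these, 9 had an entry, each listed 1 time, and NEFM had none under its symbol or a synonym. The RNA came from spinal cord of female Sprague Dawley rats, 3 months old, operated on at T9, with a laminectomy and no contusion (No-SCI) or with both (SCI). Tissue just rostral to the injury, at T8, was taken 24 h later and digested at 6°C with cold active proteases, the cells were pelleted, and total RNA of the supernatant, meant to be rich in axons, was sequenced after ribosomal RNA was removed. By the sample labels there were 2 libraries of No-SCI and 1 of SCI, but by the study's methods 2 animals per condition. The table holds 1 value per group for each gene, made by the authors in FPKM, a read count scaled by transcript length and library size. Without a value for each library no SD, interval or test between the groups could be computed, and the read count behind a gene's value is unknown.

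Intermediate filaments are rope-like polymers of coiled-coil proteins that give cells and nuclei their mechanical strength. Mature axons are filled with neurofilaments, built from the light, medium and heavy chains (NEFL, NEFM and NEFH) together with α-internexin (INA) or peripherin (PRPH), and these polymers set the calibre of large myelinated axons. Vimentin (VIM), nestin (NES) and synemin (SYNM) form filaments in glia, progenitors, fibroblasts and vessel cells, and vimentin and nestin are well known as proteins of reactive astrocytes and scar tissue. The lamins (LMNA and LMNB2) line the inside of the nuclear envelope.

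Between No-SCI and SCI the filament genes differed in direction. VIM, NES and LMNA were higher after SCI by 2.04-fold, 2.44-fold and 2.70-fold, NEFL was 3.0-fold lower, and the other 5 listed genes stayed within 2-fold. Of the 9 listed genes 6 were higher and 3 lower after SCI. A fold of at least 2 is used below as a mark of size alone, since no test was possible. Over the whole table, 7.93% of genes were at least 2-fold higher after SCI, and 12.1% were at least 2-fold lower. Among the 9 listed filament genes the counts were 3 higher and 1 lower, so the share lower was near that of all genes and the share higher above it. At a fold of at least 1.5 they were 3 and 2, where 16.9% of all genes were higher and 26.3% lower. At a fold of at least 1.3, the minimum the study used, they were again 3 and 2, where 24.6% of all genes were higher and 35.7% lower. For folds of 1.5 and 1.3 the share of filament genes lower was below that of all genes. Among 9 genes, however, 1 gene more or less moves such a share by much, so these counts are descriptive only. Their median log2 ratio (SCI over No-SCI) was 0.14, beside −0.12 for all genes, of which 43.6% were higher after SCI.

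**Figure D1:**
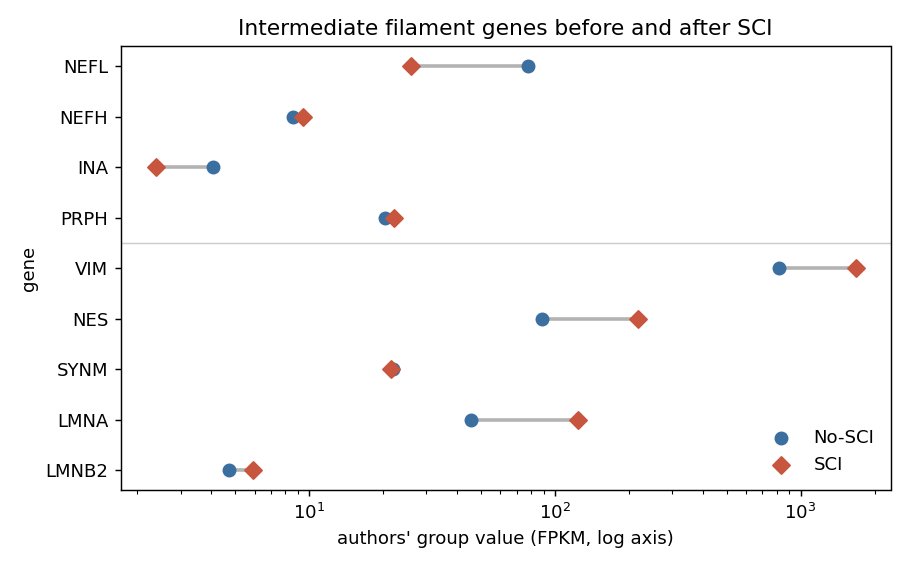
Authors' group values of the 9 listed intermediate filament genes, in FPKM on a log axis, with a circle for No-SCI and a diamond for SCI; the genes of neuronal filaments stand above the line. NEFL moved left from 78.1 to 26.0 FPKM, while VIM, NES and LMNA moved right, and the paired symbols of NEFH, PRPH and SYNM nearly touch.

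NEFL encodes the light chain, the core subunit on which neurofilaments assemble. Its authors' value was 78.1 FPKM in No-SCI against 26.0 FPKM after SCI, a log2 ratio of −1.58. Before injury it was the most abundant of the neuronal filament genes, at percentile 81.4 of all genes, and after SCI it was at percentile 62.0. Only 3.28% of all genes had a log2 ratio as low as or lower than that of NEFL. Across the pseudocounts, scalings and filters tried, its log2 ratio ran from −1.62 to −1.47.

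NEFH encodes the heavy chain, whose long tail carries many phosphorylation sites and projects from the filament. It was listed at 8.60 FPKM in No-SCI against 9.45 FPKM after SCI, a log2 ratio of 0.14. In these group values NEFL was lower after SCI and NEFH was 1.10-fold higher, although both chains build the same filament. The ratio of NEFL to NEFH, both per length, was 9.08 in No-SCI against 2.76 after SCI. The medium chain, NEFM, could not be placed between them.

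INA encodes α-internexin, a neurofilament subunit of central neurons. Its value was 4.06 FPKM in No-SCI against 2.37 FPKM after SCI, a log2 ratio of −0.77, which is 1.71-fold lower. INA was the least abundant of the 9 genes in both groups, at percentile 17.0 in No-SCI against 8.62 after SCI. The direction of INA was the same as that of NEFL, and its size depended on how low values were handled. With 1 subtracted from both values its log2 ratio was −1.15, past the 2-fold mark, and with a pseudocount of 1 it was −0.58.

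PRPH encodes peripherin, the filament protein of peripheral neurons and of central neurons that send axons to the periphery, motor neurons among them. It stood at 20.3 FPKM in No-SCI against 22.1 FPKM after SCI, a log2 ratio of 0.12. PRPH was thus 1.09-fold higher where NEFL was 3.0-fold lower. The ratio of NEFL to PRPH was 3.84 in No-SCI against 1.18 after SCI.

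Summed over the 4 listed neuronal genes, the FPKM values came to 111 in No-SCI against 60.0 after SCI, a log2 ratio of −0.89. NEFL made up 70.3% of that sum in No-SCI and 43.4% after SCI, and the part of PRPH went from 18.3% to 36.9%. The lower sum was thus carried mostly by NEFL.

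A list of 20 neuron markers can be set beside these values. It had 18 listed genes, 16 lower and 2 higher after SCI, with 6 at least 2-fold lower (33.3%, beside 12.1% of all genes). Its summed level was 3063 FPKM in No-SCI against 2224 FPKM after SCI, and its median log2 ratio was −0.52. SNCG (γ-synuclein), THY1 (a neuronal surface glycoprotein) and GAP43 (a growth cone protein) were its most abundant genes. SNCG was listed at 956 and 295 FPKM, THY1 at 297 and 136 FPKM, and GAP43 at 1275 and 1406 FPKM, in No-SCI and SCI. Among defining markers SNAP25 and CHAT had no entry, and TUBB3, the neuronal β-tubulin, went from 48.5 to 38.7 FPKM. The part of this list in the NEFL value was not tested. In RNA of a whole fraction, fewer axons or cells of a type and less RNA in each of them cannot be told apart.

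VIM was by far the most abundant filament gene. It was listed at 819 FPKM in No-SCI against 1674 FPKM after SCI, a log2 ratio of 1.03, and ranked 207 and 98 among all genes. VIM alone gave 75.0% of the summed level of the 9 genes in No-SCI and 79.6% after SCI. Its 2.04-fold difference lay just past the 2-fold mark, and its log2 ratio stayed between 1.03 and 1.15 under the pseudocounts, scalings and filters tried.

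NES encodes nestin, a large filament protein of neural progenitors that needs a partner such as vimentin to assemble. It had 89.0 FPKM in No-SCI against 217 FPKM after SCI, a log2 ratio of 1.29. Its percentile among all genes went from 83.2 to 92.4. VIM and NES kept a similar proportion to each other, 9.20 in No-SCI against 7.72 after SCI.

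SYNM encodes synemin, which likewise joins vimentin or desmin filaments and links them to the membrane. Its values were close to each other, with 22.0 FPKM in No-SCI against 21.6 FPKM after SCI. The log2 ratio of SYNM was −0.03 and turned to 0.09 once the median of all genes was centred at 0. The ratio of NES to SYNM accordingly went from 4.04 to 10.1.

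LMNA encodes lamins A and C. With 45.8 FPKM in No-SCI against 124 FPKM after SCI it had the largest log2 ratio of the 9 genes, 1.43, at percentile 96.1 of all log2 ratios. LMNB2, the gene of lamin B2, stood at 4.71 and 5.91 FPKM, a log2 ratio of 0.33. The ratio of LMNA to LMNB2 was 9.72 in No-SCI against 20.9 after SCI, so LMNA gained on LMNB2. Lamin B1 (LMNB1), which was not among the 10 genes, was listed at 2.54 and 5.59 FPKM, a log2 ratio of 1.14. LMNB1 was thus 2.20-fold higher after SCI, beside 2.70-fold for LMNA and 1.26-fold for LMNB2. The No-SCI value of LMNB1 lay near the lowest listed value of 1 FPKM, so this fold depends on how low values are handled.

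**Figure D2:**
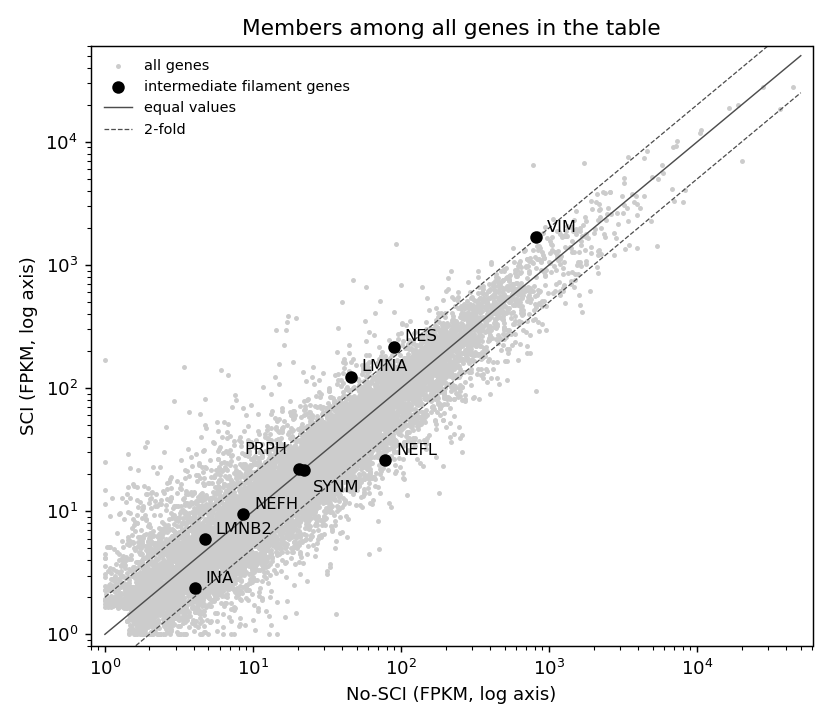
Authors' values of all 12758 genes in No-SCI (horizontal) and SCI (vertical), both in FPKM on log axes, with the 9 listed intermediate filament genes in black, a solid line for equal values and dashed lines for 2-fold. VIM, NES and LMNA lie on or above the upper dashed line, NEFL below the lower one, and the other 5 genes between them.

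In order of level in No-SCI the genes ran VIM, NES, NEFL, LMNA, SYNM, PRPH, NEFH, LMNB2 and INA. After SCI the order was VIM, NES, LMNA, NEFL, PRPH, SYNM, NEFH, LMNB2 and INA. NES was 1.14 times as abundant as NEFL in No-SCI and 8.33 times after SCI, and LMNA went from 0.586 to 4.75 times the level of NEFL. Adjacent genes such as SYNM and PRPH, which differed by 1.08-fold in No-SCI and 1.02-fold after SCI, cannot be ranked with confidence because their spread between animals is unknown. The values of NES and PRPH carry up to 7 digits, as do those of 58.6% of entries, while the other filament genes have at most 6. How values with more digits were put together is not given in the sources used here, and levels of these genes relative to the others may depend on it.

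Several markers moved together with VIM, NES and LMNA. Of 14 meningeal fibroblast markers 13 were listed and all 13 were higher after SCI. At least 2-fold higher were 11 of them, 84.6% beside 7.93% of all genes. The 13 markers summed to 176 FPKM in No-SCI against 1264 FPKM after SCI, and their median log2 ratio was 2.31. DCN (decorin, a collagen-binding proteoglycan) was listed at 15.1 and 156 FPKM, and COL1A1, a chain of type I collagen, at 1.87 and 5.25 FPKM. The fibroblast sum depends on which markers were listed. The part of these markers in the values of VIM, NES and LMNA was not tested.

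Markers of the other cells that carry vimentin or nestin were lower or mixed in direction. Of the 14 astrocyte markers 9 were listed, with a sum of 14252 FPKM in No-SCI against 9069 FPKM after SCI. In that list 8 genes were lower and 1 higher, the median log2 ratio was −1.31, and GFAP, the astrocyte filament gene, had no entry, nor had AQP4, S100B, ALDOC or SLC1A3. Endothelial markers (9 of 12 listed) summed to 77.8 and 120 FPKM, with 5 higher and 4 lower and CDH5, the cadherin of vessel walls, at 3.85 and 11.7 FPKM. PECAM1, TEK and TIE1 had no entry. Mural markers (9 of 10 listed) summed to 434 and 556 FPKM, with 5 higher and 4 lower. Microglia and macrophage markers (14 of 14 listed) summed to 1217 and 1756 FPKM, with 8 higher and 6 lower. In that list 3 genes were at least 2-fold higher (21.4%, beside 7.93% of all genes) and 3 at least 2-fold lower (21.4%, beside 12.1%). LYZ2, a lysozyme of macrophages, had its largest log2 ratio, 1.61, at 201 and 611 FPKM. CX3CR1 had its lowest, −1.25, at 16.8 and 7.06 FPKM. The part of all these markers in the result was not tested.

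Markers of other tissues also differed between the groups. Schwann cell markers, which bear on PRPH because nerve roots hold peripheral axons, were listed for 7 of 8 genes, 6 of them higher after SCI. PRPH itself was nearly level, and the part of these markers in its value was not tested. The skeletal muscle list had 11 of 12 genes, all 11 lower, with a sum of 455 FPKM in No-SCI against 60.2 FPKM after SCI. DES, the gene of the muscle filament protein desmin, was in that list and went from 16.3 to 12.4 FPKM. Oligodendrocyte and myelin markers (13 of 14 listed, without MBP) had a median log2 ratio of −1.53, with 11 lower and 2 higher. For oligodendrocyte precursor markers the median was −0.15 (8 of 8 listed, 5 lower), for ependymal markers −0.70 (4 of 10 listed, 4 lower) and for blood cell markers −0.12 (6 of 12 listed, 4 lower and 2 higher). The 2 higher blood cell genes were S100A8 and S100A9, calcium-binding proteins of neutrophils, with log2 ratios of 1.54 and 1.70, and the median of that list turned to 1.54 once a mean of at least 5 FPKM was required.

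**Figure D3:**
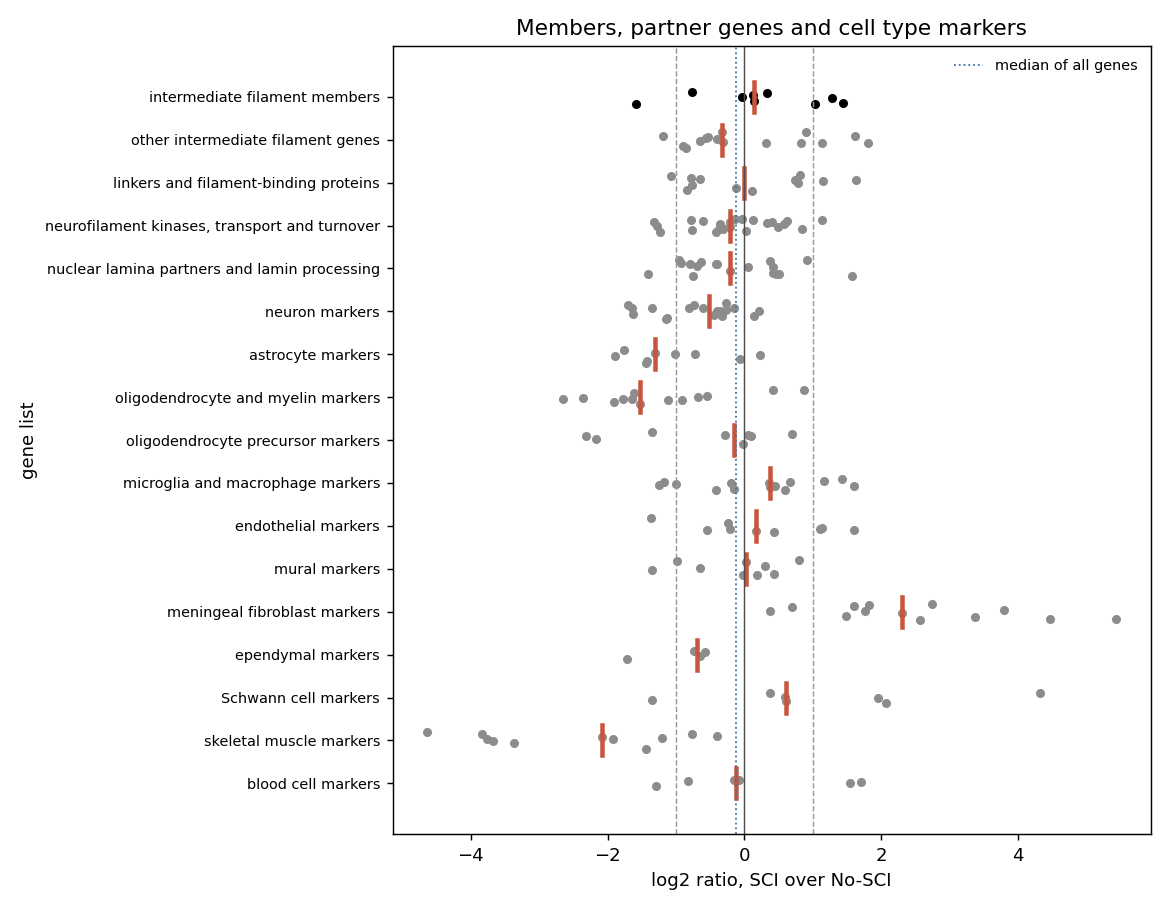
Log2 ratio of SCI to No-SCI (horizontal) for each listed gene of the intermediate filament family and of 16 gene lists, with a red bar at each list's median, a dotted line at the median of all genes (−0.12) and dashed lines at 2-fold; MLIP, listed at the lowest value of the table in No-SCI, is left out of its row but counted in its median. The filament genes spread on both sides of 0, whereas the fibroblast markers all lie to the right and the muscle markers all to the left.

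The rest of the intermediate filament family was taken from a list of 31 further genes, of which 15 were listed. After SCI 6 of these were higher and 9 lower, and their median log2 ratio was −0.33. The genes at least 2-fold higher were KRT7, KRT8 and LMNB1, 20% of the listed genes beside 7.93% of all genes. KRT17 was the 1 gene at least 2-fold lower, 6.67% beside 12.1%. Its values, 2.84 and 1.25 FPKM, lay near the lowest listed value of 1 FPKM, as did the No-SCI value of LMNB1. KRT7 and KRT8 encode keratins of simple epithelia, and KRT8 was listed at 9.43 and 29.1 FPKM and KRT7 at 4.66 and 16.3 FPKM. KRT18, the usual partner of keratin 8, had 1.40 and 2.48 FPKM, a log2 ratio of 0.83. IFFO1, a lamin-binding member of the superfamily, was the most abundant of the list, with 154 FPKM in No-SCI against 82.8 FPKM after SCI.

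Genes that modify, move or degrade neurofilaments were mostly within 2-fold. Of 25 such genes 24 were listed, 9 higher and 15 lower, with a median log2 ratio of −0.21. TRIM2, a ubiquitin ligase that targets the light chain, was listed at 324 and 130 FPKM, a log2 ratio of −1.32. ARHGEF28, which binds the mRNA of the light chain, had 29.6 and 12.2 FPKM, a log2 ratio of −1.28. KIF5A, the kinesin that carries neurofilaments along the axon, had a log2 ratio of −1.24, and its relatives KIF5B and KIF5C had log2 ratios of −0.61 and −0.78. TRIM2, ARHGEF28 and KIF5A were the 3 of the 24 genes at least 2-fold lower, 12.5% beside 12.1% of all genes, so the list's share was near that of the whole table. GSK3B, a kinase of neurofilament tails, was the 1 gene at least 2-fold higher, 4.17% beside 7.93% of all genes. It had 32.9 and 71.9 FPKM, a log2 ratio of 1.13. KLC1, a kinesin light chain and the most abundant gene of the list, was at 3922 and 3151 FPKM.

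Linkers and chaperones that bind filaments showed no common direction, with 6 of the 12 listed genes higher and 6 lower. CRYAB, a small heat shock protein that binds vimentin and desmin filaments, was listed at 3394 FPKM in No-SCI against 7532 FPKM after SCI, a log2 ratio of 1.15. HSPB1, a related chaperone, had 1914 and 3305 FPKM, a log2 ratio of 0.79. AHNAK, a very large scaffold protein, was at 37.5 and 116 FPKM, a log2 ratio of 1.63. PKP4, a plakophilin relative of cell junctions, was at 6970 and 3299 FPKM, a log2 ratio of −1.08. DST and MACF1, giant linkers between the filament systems, had log2 ratios of −0.79 and −0.64. Plectin (PLEC) had no entry.

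Proteins of the nuclear lamina did not move as a group with LMNA. Of 23 such genes 19 were listed, 9 higher and 10 lower, and the median log2 ratio was −0.22. SUN1, a lamin-bound protein of the inner nuclear membrane, had 31.5 and 11.8 FPKM and a log2 ratio of −1.42, opposite to LMNA. ANKLE2, a nuclear envelope protein that acts on BANF1, lay in the direction of LMNA, with 1.76 and 5.22 FPKM and a log2 ratio of 1.57. BANF1, which bridges chromatin and lamina and was the most abundant of the list, was at 895 and 1267 FPKM, a log2 ratio of 0.50. ZMPSTE24, the protease that trims prelamin A, was at 7.80 and 4.12 FPKM, a log2 ratio of −0.92. MLIP, a protein that binds lamins A and C, had 169 FPKM after SCI but stood in No-SCI at 1 FPKM, the floor of the listed values, which allows no fold.

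The genes nearest to LMNA over the 2 group values, by distance on the log2 scale, were DNTTIP1, ABRACL and MAFF, at distances of 0.17, 0.18 and 0.21. Nearest to NEFL were SIPA1L1, GAB1 and GPATCH2, at distances of 0.09, 0.12 and 0.13. With 2 values per gene such nearness describes level and ratio alone.

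RefSeq promoter windows of the GRCr8 rat assembly, 300 bases around the annotated gene start, were held for 7 of the 10 genes, NEFL, NEFM and NEFH being the exceptions. They were searched on both strands for the core promoter letters TATAAA, for the box named CCAAT after its letters, for the GC box with the letters GGGCGG and for the AP-1 site with the letters TGACTCA. The stretches below show VIM, NES and LMNA, which were higher after SCI, and PRPH, which was nearly level. Capitals mark each match to the motif named on that line, written 5′ to 3′ on the strand of the gene, so that CCGCCC is GGGCGG read on the other strand.
VIM, TATA box, chr17:81577168-81577196, plus strand: cctaacagtgtTATAAAagcagcgccctt
NES, GC box found 2 times, chr2:175736534-175736562, plus strand: CCGCCCcttttCCGCCCagccggcgggag
LMNA, AP-1 site, chr2:176258224-176258252, minus strand: ccggctgtcagTGACTCAgtgttcgcggg
PRPH, TATA box, chr7:132097243-132097271, plus strand: taccgcagggcTATAAAgccgccccgcat
The TATA box of VIM began 82 bases before the annotated start and that of PRPH 35 bases before it, and 14.2% of 33469 promoter windows held those letters. LMNA was the one of the 7 genes with the AP-1 letters, which 4.63% of all windows held. GC box letters were found in 6 of the 7 windows (33.1% of all windows) and CCAAT in those of VIM and SYNM (37.5% of all windows). VIM and PRPH thus share TATA letters while their values differed by 2.04-fold and 1.09-fold between the groups, and these matches describe letters alone.

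**Figure D4:**
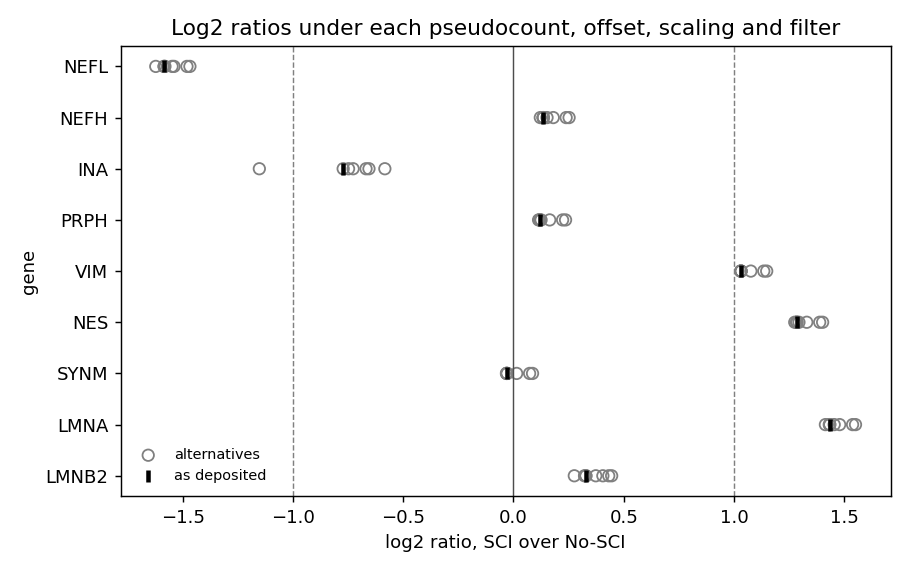
Log2 ratio of SCI to No-SCI (horizontal) of the 9 listed intermediate filament genes as deposited (black bars) and under each pseudocount, offset, scaling and filter tried (open circles), with dashed lines at 2-fold. NEFL stays left of the lower dashed line, VIM, NES and LMNA stay right of the upper one, INA crosses the lower line under 1 alternative, and SYNM lies on both sides of 0.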

How the data were processed

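Per the labels, total RNA of 3 spinal cord samples was sequenced. For each gene the table that the authors deposited holds an FPKM value of either group. According to the methods and the submitters' processing notes, reads were downsampled to the smallest library, aligned to rn6 with STAR 2.5.4b and summarised by Cuffdiff (version 1.3.0 in the notes) with upper quartile normalization. The fold changes, p-values and q-values in the same table are the authors' own comparison and were not used. No listed value lies below 1, and across genes the larger of the 2 group values has a minimum of 1.41. Columns of single samples left unused numbered 0.

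For 13 symbols with more than 1 entry the entry with the larger mean was kept. Log2 ratios were taken without a pseudocount. No test was run, since each group has 1 value. The 10 genes, the 16 lists (12 of cell type markers, 4 of related genes) and the motifs were chosen with earlier results of these data known. From each list the 3 most abundant genes, up to 3 with the largest log2 ratio past 2-fold and defining markers could be named, and for the genes with the largest and smallest log2 ratio the 3 nearest genes. GSK3B, LMNB1, KRT18, ZMPSTE24, DST, MACF1, KIF5C and PLEC fall outside this and were picked after their values were seen. The alternatives were pseudocounts of 1 and 0.1, 1 subtracted from both values, 3 scalings, fold minimums of 1.5 and 1.3, a mean of at least 5 FPKM, and summed entries. Calculations were checked on simulated data, in Python 3.11.15 with pandas 2.3.3. RefSeq tables of GRCr8 served for synonyms and promoter letters, and their coordinates are not those of rn6.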

Additional observations from a re-analysis of the deposited data

How the results depend on the processing

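Over 10 alternatives the log2 ratios of VIM, NES, LMNA and NEFL kept their direction and stayed past 2-fold. The fold minimums, the 5 FPKM filter and the summed entries could not alter these ratios. Only the pseudocounts, the subtraction of 1 and the scalings could move them. The count of filament genes past the fold minimum and higher stayed at 3. The count lower was 2 in place of 1 with 1 subtracted from both values and with fold minimums of 1.5 and 1.3, INA being the gene added (log2 ratio −1.15 with 1 subtracted). At a fold minimum of 1.5, 2153 of all genes were higher and 3355 lower, and at 1.3, 3142 were higher and 4559 lower. The median log2 ratio of the filament genes ran from 0.12 to 0.25. Every log2 ratio moved up by 0.12 when the median of all genes was set to 0, by 0.10 with the same upper quartile and by 0.045 with the same total. SYNM turned positive under these (0.0865, 0.0732 and 0.0145). The median of the linker list, −0.0026 as deposited, became 0.114, 0.101 and 0.0424 under them, 0.0165 with a pseudocount of 1 and 0.0001 with 0.1. With a mean of at least 5 FPKM required, the mural median was −0.23, the blood cell median 1.54 and the endothelial median 1.11, each from fewer genes. As deposited, the endothelial median was 0.17. INA was left out under that filter. The Schwann cell median was 0.60 as deposited and 1.40 with 1 subtracted from both values. Leaving out a replicate could not be run, because the values are group values, and the read counts behind them are unknown. No paired analysis applied, because No-SCI and SCI were separate animals.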
